A study of Schizosaccharomyces pombe with 49 samples.

Results

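The genes described here lie in the 4 subtelomeres of chromosomes I and II of the fission yeast Schizosaccharomyces pombe, the stretches of chromosome just inside the telomeres. They were chosen by systematic ID alone: every ID in all count files that begins with SPAC212. or SPAC977. (left end of chromosome I), SPAC750. or SPAC186. (right end of I), SPBC1348. or SPBPB10D8. (left end of II) or SPBCPT2R1. or SPBPB2B2. (right end of II). This gave 94 of the 7015 features counted, with 30 at I left, 17 at I right, 21 at II left and 26 at II right. The gene order in the RefSeq annotation places each group at the end named, and at II left 13 coding genes with other prefixes lie among the members.

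Subtelomeric genes of fission yeast sit close to telomere-bound Taz1 and the shelterin complex, and much of this chromatin carries histone H3 methylated at lysine 9, which is made by the Clr4 methyltransferase within a complex that contains the cullin Cul4. Nearest the telomere are the tlh helicase genes, followed by families of membrane and cell-surface genes present in near-identical copies at several ends, and then by genes for nutrient use such as the galactose cluster. Many subtelomeric genes are silent in rich medium and are known to respond to nutrients, stress or mating and meiosis. Red1 and Pir1 (also called Iss10) belong to the machinery that eliminates meiotic transcripts in growing cells, and Tor2 is the kinase of the growth-promoting complex TORC1.

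The study sequenced RNA from cells in which TOR signalling, RNA elimination or a cullin ligase was altered, and from cells driven through meiosis. Counts were analysed for 46 libraries, and 2 further comparisons, of tor2-ts6 and of pir1Δ mat1Msmt0 cells in YEA at 30C, came as the authors' own fold changes. In rich YEA medium at 30C, h90 cells were tor2-ts6 with ubi4Δ, cul4Δ or ddb1Δ, each without and with pir1Δ (6 libraries), tor2-ts6 alone, or wild type (WT). Diploid cells with the pat1-as2 allele, which carry an inhibitor-sensitive Pat1 kinase, were red1Δ (10 libraries), pir1Δ (10 libraries) or WT (11 libraries, 2 of them vegetative). These were sampled at 26C as vegetative cells in YEA, after 4 h of starvation in nitrogen-free EMM-N, and hourly at 1 to 8 h in EMM with 25 µM 1-NM-PP1, the inhibitor that starts meiosis, so that in the labels the medium changed together with the inhibitor. The h90 cells expressing GFP-Pir1-SD or GFP-Pir1-SA were grown in minimal EMM medium at 18C, and those expressing GFP-Pir1 in EMM at 18C and YEA at 30C. The mat1Msmt0 cells with counts were pir1Δ in EMM and in YEA at 29C and WT in EMM at 29C. Apart from the vegetative WT diploid, each strain and condition had 1 library, and the labels do not say whether libraries came from separate cultures, so p-values here measure the spread between libraries and, in the course, how steady a difference was over time.

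Total gene reads ran between 10157616 and 56454913 per library, and the members took 0.0567% to 0.36% of them. Levels are given as CPM, each gene's reads scaled by the library's total gene reads. A count of 0 allows up to 3 reads, which is 0.0531 CPM in the deepest and 0.295 CPM in the shallowest library, and this limit covers counting error only. Reads of the deleted gene fell far below the other libraries in ddb1Δ (8.00 and 8.32 CPM, against at least 95.1), ubi4Δ (41.2 and 47.5 against at least 116) and red1Δ (at most 18.8 against at least 67.3). Reads of pir1 were at most 5.90 CPM in 14 pir1Δ libraries and at 17.04 CPM in the library labelled cul4Δ with pir1Δ, against at least 25.4 CPM without the deletion, and against 62.8 CPM in the library labelled cul4Δ alone. Reads of cul4 did not drop: the gene stood at 92.7 and 75.1 CPM in the libraries labelled cul4Δ and at 71.6 to 72.9 CPM in those of ubi4Δ and ddb1Δ. Reads of cul4 therefore do not bear out that label, and every direction drawn from these libraries rests on the label alone.

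Copies limit what can be counted at these ends, because reads that map to several places were not counted. In the RefSeq genome (ASM294v3), 27 members held no 75-base stretch found only once, 33 held unique stretches over less than 50% of their length, and 34 over 50% or more. Of the 27 without a unique stretch, 18 had no read in any library and 1 reached 1 CPM, the GPI-anchored protein gene SPAC212.12 (3.15 CPM, named after its values were seen). All 34 mostly unique members reached 1 CPM, with a median largest level of 107 CPM. For the members at 0 in all libraries, a silent gene and an uncountable one cannot be told apart.

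The windows below, from RefSeq, show how few bases separate copies whose values are given later. Each is 60 coding bases of the sense strand, and capitals mark the columns at which the copies differ. The first 3 are an uncharacterized gene with a copy at I left, II left and II right, which differ at 2 bases in the window shown and at 2 of 570 aligned coding bases between SPAC977.06 and either other copy.
SPAC977.06: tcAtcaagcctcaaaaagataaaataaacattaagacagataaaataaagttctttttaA
SPBC1348.07: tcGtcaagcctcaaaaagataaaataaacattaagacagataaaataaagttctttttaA
SPBPB2B2.14c: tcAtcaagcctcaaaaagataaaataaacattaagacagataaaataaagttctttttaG
The RecQ-type DNA helicase genes tlh1 (I left) and tlh2 (II right) differ at 1 of 5662 aligned coding bases, and that base is the last one here.
tlh1: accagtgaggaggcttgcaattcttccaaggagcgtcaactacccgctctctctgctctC
tlh2: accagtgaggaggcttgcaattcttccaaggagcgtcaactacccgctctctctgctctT
A pair of uncharacterized genes at I left and II right, SPAC977.18 and SPBPB2B2.18, differs at 9 columns of the window and at 13 of 322 aligned bases.
SPAC977.18: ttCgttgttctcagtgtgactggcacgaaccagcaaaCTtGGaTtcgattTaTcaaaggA
SPBPB2B2.18: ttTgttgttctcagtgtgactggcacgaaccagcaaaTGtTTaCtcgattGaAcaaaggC
The aldo-keto reductase genes SPAC977.14c (I left) and SPAC750.01 (I right) differ at 14 columns of the window and at 62 of 978 aligned bases.
SPAC977.14c: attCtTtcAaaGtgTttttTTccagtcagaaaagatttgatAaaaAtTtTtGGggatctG
SPAC750.01: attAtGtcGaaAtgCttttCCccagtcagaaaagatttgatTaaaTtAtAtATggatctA
Values of the first 2 families rest on the few reads that cross such a base or a diverged flank. In the next pair, 75-base stretches found only once made up 21.4% of SPAC977.18 and 6.12% of SPBPB2B2.18. How reads were shared among copies was not tested.

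Across all libraries, 62 members reached 1 CPM and 32 never did. The levels differed by chromosome end. The summed level of I left lay between 231 and 1676 CPM over all libraries, and the highest medians at that end were those of SPAC977.14c and of nhe1, the sodium/proton antiporter gene. Other genes led in some libraries, such as the dihydroxyacetone kinase gene dak2 at 1 h in WT diploids (703 CPM) and SPAC212.04c at 6 h (408 CPM). Nearest the telomere at the same end, tlh1 and SPAC212.10 stayed under 1 CPM in every library other than the pair labelled cul4Δ. In such bulk cultures, fewer cells that express a gene and less RNA per cell cannot be told apart. At II left the highest medians were those of SPBPB10D8.01, annotated as a cysteine transporter, and the transcription factor gene SPBC1348.12. The sums of I right and II right depended on the strain, as described next.

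**Figure D1:**
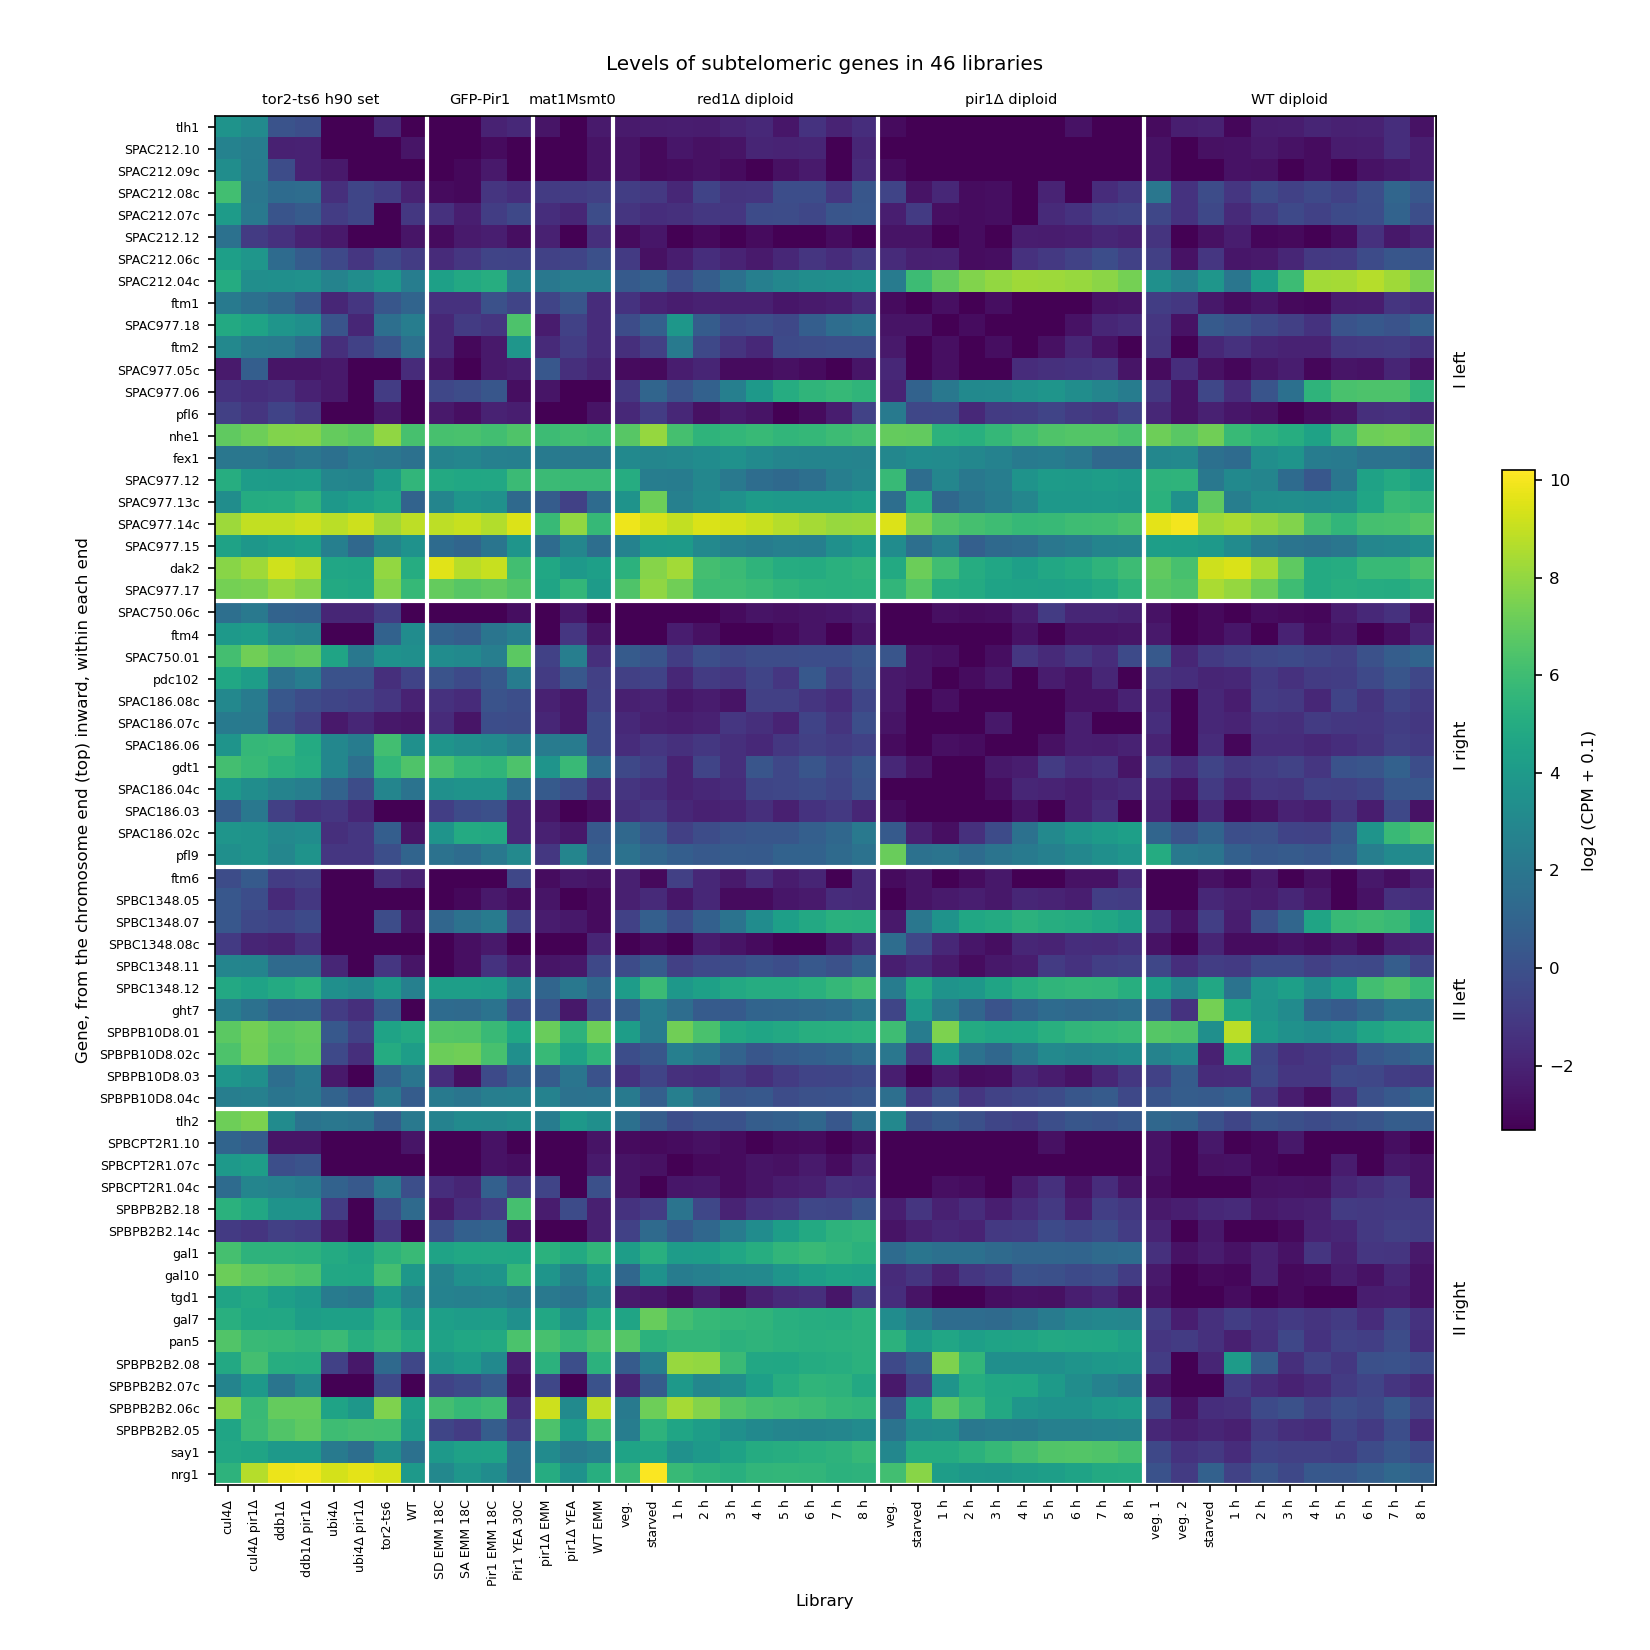
Levels of the 62 members that reached 1 CPM, one row per gene ordered from the telomere inward within each end, and one column per library (46), as log2 (CPM + 0.1); cul4Δ is the label of those libraries. The lower block, II right, is dark in the WT diploid at every stage apart from SPBPB2B2.08 at 1 h (17.1 CPM), and most of the I right block is dark in all 3 diploid strains.

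A stretch of II right with the galactose genes was low in all 11 libraries of the WT diploid, and the summed level of this end was higher in every other strain. The summed level of the 26 II right members was 239 to 1575 CPM in the red1Δ diploid and 144 to 409 CPM in the pir1Δ diploid, against 3.48 to 20.2 CPM in the WT diploid. In the 15 libraries of h90 and mat1Msmt0 cells it was 161 to 1484 CPM. The ranges of the WT diploid and of the other strains did not overlap, at any stage or in any medium.

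The galactose genes are part of this stretch. Galactokinase gal1 ran between 17.7 and 57.2 CPM in red1Δ diploids (median 36.1) and between 1.95 and 3.74 CPM in pir1Δ diploids, against 0.0565 to 0.338 CPM in WT diploids. The uridylyltransferase gene gal7 ran between 24.1 and 133 CPM in red1Δ diploids and between 2.497 and 9.30 CPM in pir1Δ diploids, against 0.118 to 0.614 CPM in WT diploids. The 3 ranges of each gene were apart from one another.

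The epimerase gene gal10 had lower counts without strand, the count used for the course, at 2.22 to 22.6 CPM in red1Δ and 0.141 to 0.975 CPM in pir1Δ diploids, against 0 to 0.164 CPM in WT diploids. In the stranded count it ran between 28.6 and 230.4 CPM in red1Δ diploids and between 2.096 and 12.9 CPM in pir1Δ diploids, against 0.103 to 1.30 CPM in WT diploids, with the same order as gal1 and gal7. Without strand, pir1Δ and WT overlapped. Between gal10 and gal7 lies tgd1, annotated as a nucleotide-sugar dehydratase and named after its values were seen. It was low in all 3 strains without strand, at 0.0311 to 0.406 CPM in red1Δ and at most 0.245 CPM in pir1Δ diploids, against at most 0.123 CPM in WT diploids. In the stranded count it ran between 10.1 and 40.5 CPM in red1Δ and between 0.301 and 4.61 CPM in pir1Δ diploids, against 0.0516 to 0.802 CPM in WT diploids. In h90 and mat1Msmt0 cells gal1, gal7 and gal10 were expressed: gal1 lay between 22.9 and 74.7 CPM there.

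Inward of the galactose cluster, WT diploids were likewise below both mutants for pan5, whose product is annotated as a dehydropantoate reductase (37.3 to 99.9 CPM in red1Δ, 16.97 to 41.0 in pir1Δ, against 0.132 to 0.778 in WT diploids). The innermost member, nrg1, annotated as an amino-acid permease, was at 37.5 to 1125 CPM in red1Δ and 14.2 to 222 CPM in pir1Δ, against 0.413 to 2.25 CPM in WT diploids. For say1, a sterol deacetylase gene, the levels were 11.5 to 53.2 CPM in red1Δ and 7.68 to 94.5 CPM in pir1Δ, against 0.226 to 1.15 CPM in WT diploids.

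The first coding gene inward of nrg1, fub2, was at 1.86 to 87.1 CPM in red1Δ and 0.214 to 1.85 CPM in pir1Δ, against 0.128 to 1.10 CPM in WT diploids, so that WT and pir1Δ overlapped. The next one, the acid phosphatase gene pho1, was expressed in all 3 strains, at 308 to 1240 CPM in red1Δ and 600.3 to 4526 CPM in pir1Δ, against 213 to 1845 CPM in WT. At pho1 the WT diploid no longer stood below the others.

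A rule for strain differences asked for at most 0.1 CPM in every library of a strain and at least 1 CPM in another. By it 29 members differed between strains and 22 were near 0 in all of them. A strain with 1 library meets it more easily: the count was 20 in tor2-ts6 ubi4Δ pir1Δ and 19 in h90 WT, but 2 in the red1Δ diploid, 7 in the pir1Δ diploid and 1 in the WT diploid, SPBCPT2R1.10. The II right genes of the WT diploid did not meet this limit because they kept traces of reads. A looser description, chosen after seeing the data, called a member low in a diploid strain when its largest level there was under 5% of the largest elsewhere, for members at 10 CPM or more elsewhere. At II right this gave 4 of 14 members in red1Δ and 6 of 15 in pir1Δ, against 14 of 15 in WT, where SPBPB2B2.08 was the exception with 17.1 CPM at 1 h. At I left it gave 4, 6 and 3 of 16, and at II left 2, 1 and 0 of 6, in red1Δ, pir1Δ and WT. For some members, such as tlh1 and tlh2, the largest level elsewhere was in a library labelled cul4Δ. Diploid levels in this rule were counted without strand, while those of h90 and mat1Msmt0 cells were stranded counts. By it tgd1 was low in red1Δ, although its stranded count there was 10.1 to 40.5 CPM, against at most 29.1 CPM in h90 and mat1Msmt0 cells. In WT diploids the stranded count of tgd1 reached 0.802 CPM.

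At I right, the 5% rule called most genes low in all 3 diploid strains. The rule gave 6 of 8 in red1Δ and 6 of 8 in pir1Δ, against 5 of 8 in WT. Of those low in WT, ftm4, SPAC750.01 and pdc102 had their largest level elsewhere in a library labelled cul4Δ. For SPAC186.06 and gdt1 it was in tor2-ts6 and WT h90 cells (pdc102 and SPAC186.06 were named after their values were seen). Low levels were not limited to diploids: ftm4 was at 0 CPM in both ubi4Δ libraries and 0.0649 CPM in mat1Msmt0 WT, but at 9.35 CPM in h90 WT. Here too diploid counts without strand were set beside stranded ones, and the part of the count column was not tested for this rule. The putative manganese and calcium transporter gene gdt1, picked after its values were seen, reached at most 1.12 CPM in red1Δ, 0.419 CPM in pir1Δ and 1.72 CPM in WT diploids, while it ran between 2.53 and 89.5 CPM in the 15 h90 and mat1Msmt0 libraries. SPAC750.01 stayed at or under 1.97 CPM in all 31 diploid libraries and reached 154 CPM in the library labelled cul4Δ with pir1Δ. It was as low in mat1Msmt0 cells in EMM, at 0.523 CPM in pir1Δ and 0.260 CPM in WT. The innermost members were SPAC186.02c, a hydroxyacid dehydrogenase gene, and pfl9, a DIPSY-family cell-surface glycoprotein gene. SPAC186.02c reached 4.26 CPM in red1Δ, 20.1 CPM in pir1Δ and 81.8 CPM in WT diploids. For pfl9 the highest levels were 3.38 CPM in red1Δ, where it was low by the rule, 139 CPM in pir1Δ and 32.0 CPM in WT. The next coding gene inward, SPAC869.01, ran between 1.41 and 97.1 CPM in red1Δ and 0.619 to 5.68 CPM in pir1Δ, against 0.997 to 8.75 CPM in WT.

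By the rule itself, members called low in a strain were low in vegetative growth, starvation and meiosis alike. Other members of these 2 ends changed within a strain. In WT diploids SPBPB2B2.08 ran between 0 and 17.1 CPM, SPAC186.02c between 0.547 and 81.8 CPM and pfl9 between 1.17 and 32.0 CPM. RNA data hold no measure of gene copy number, so a missing or rearranged stretch and a silent one cannot be told apart, and neither can the deletion of red1 or pir1 and any other difference between these diploids.

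**Figure D2:**
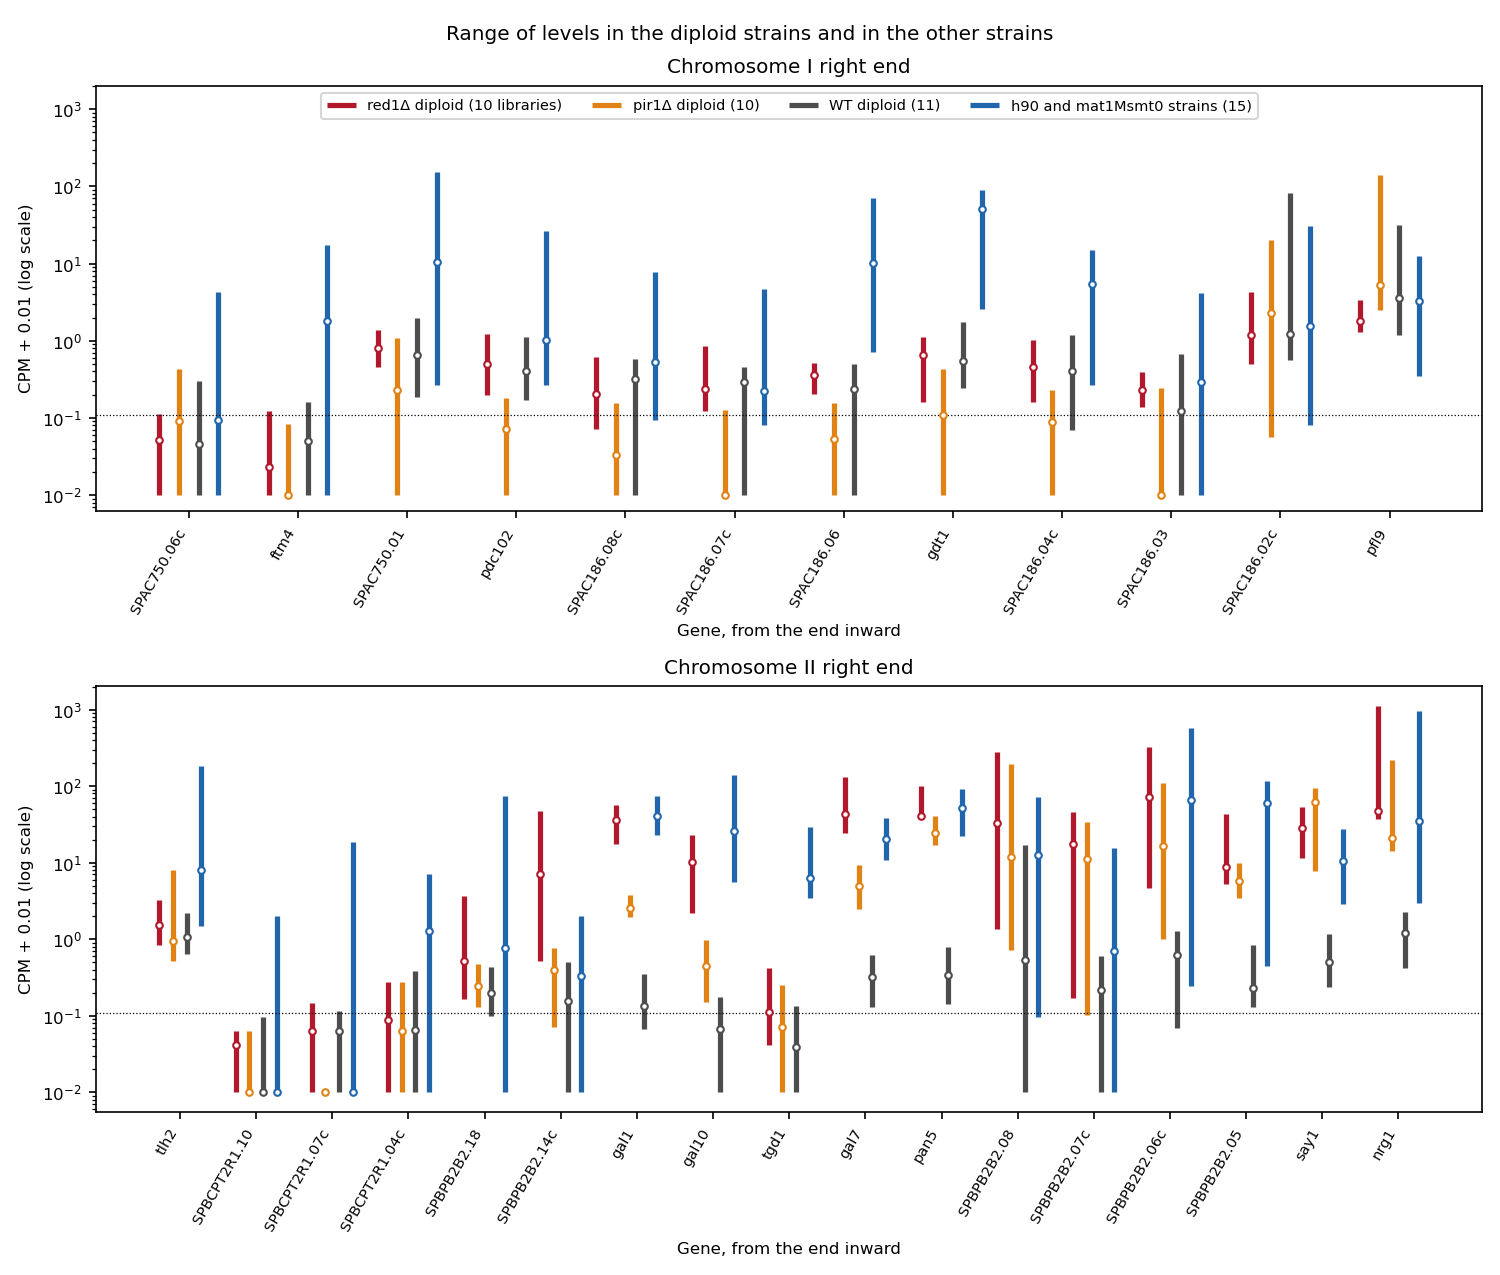
Lowest to highest level (bars) and median (white dots) of each I right and II right member that reached 1 CPM, as CPM + 0.01 on a log axis. Shown are red1Δ (10 libraries), pir1Δ (10) and WT (11) diploids, counted without strand, and the h90 and mat1Msmt0 libraries (15), as stranded counts. The dotted line is the 0.1 CPM limit. At II right, the WT diploid lies below both mutants without overlap for gal1 (no more than 0.338 CPM), gal7, pan5, SPBPB2B2.05, say1 and nrg1, and overlaps with pir1Δ for gal10, tgd1, SPBPB2B2.08, SPBPB2B2.07c and SPBPB2B2.06c; at I right, gdt1 is low in every diploid strain.

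Most members of II right that were tested were higher in both mutant diploids. In edgeR's quasi-likelihood test over the course (stage as a block, threshold 0.05 on the adjusted p), 14 of 48 members tested rose in red1Δ, where 14.2% of all 5687 genes were called higher, and 8 fell, where 18.1% were called lower. Of the 13 II right members tested, 12 were higher and none lower in red1Δ. In pir1Δ 14 members rose, against 17.4% of all genes, and 21 fell, against 24.1%, and at II right 11 of 13 were higher and none lower, while 18 of the 21 that fell were at I left and I right. The member medians were 0.03 for red1Δ and -0.13 for pir1Δ (log2), beside -0.02 and -0.01 over all genes. Both mutants were set against the same WT libraries, in which these II right genes were low, apart from SPBPB2B2.08 at 1 h.

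By the same test the log2 fold change of gal1 was 7.19 ± 0.35 (SE, adjusted p = 2.4e-13) in red1Δ and 4.12 ± 0.33 (adjusted p = 4.7e-09) in pir1Δ. For pan5 edgeR gave 6.63 ± 0.24 (adjusted p = 3.0e-15) in red1Δ and 6.22 ± 0.24 (adjusted p = 8.9e-15) in pir1Δ, so the galactose gene was further apart between the mutants than pan5 was. The difference between the mutants was not tested. Among the 14 members called higher in red1Δ, 12 were low in WT diploids by the 5% rule, and the other two were SPAC977.14c and SPBPB2B2.08. Among the 14 called higher in pir1Δ, 10 were low in WT diploids, and the other four were pfl6 (named after its values were seen), pfl9, SPBPB10D8.02c and SPBPB2B2.08. Without vegetative WT replicate 1, the 8 members lower in red1Δ became 4.

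Outside II right, the clearest difference of red1Δ was SPAC212.04c, an uncharacterized gene at I left. It stood at 1.32, 1.71, 0.821, 1.48, 3.11, 5.56, 7.64, 9.70, 10.6 and 11.7 CPM from vegetative cells to 8 h in red1Δ, and at 10.8 and 6.20, 13.9, 3.80, 18.4, 61.5, 323, 336.8, 408, 312 and 193 CPM in WT. In pir1Δ the values were 4.77, 62.4, 124, 198, 257, 307, 300, 281, 227 and 163 CPM. The gene was higher at 8 h than in vegetative cells in all 3 strains, stayed lowest in red1Δ at each stage, and stood above WT from starvation to 3 h in pir1Δ. EdgeR gave -4.79 ± 0.56 (adjusted p = 8.2e-07) for red1Δ, while pir1Δ over the whole course did not pass (1.13 ± 0.51, adjusted p = 0.080).

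SPAC977.14c, the aldo-keto reductase gene with the highest median level at I left, was highest in vegetative cells of each strain and stayed higher for longer in red1Δ. At 4, 5 and 6 h it was at 540, 416 and 334 CPM in red1Δ and at 54.0, 55.8 and 62.9 CPM in pir1Δ, against 75.1, 47.7 and 72.8 CPM in WT. EdgeR called it higher in red1Δ (1.29 ± 0.25, adjusted p = 0.00043) and lower in pir1Δ (-0.63 ± 0.25, adjusted p = 0.042). The kinase gene dak2 was lower in both, by -1.29 ± 0.25 in red1Δ (edgeR adjusted p = 0.00046) and -1.35 ± 0.26 in pir1Δ (adjusted p = 0.00021).

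Most of the other lower calls in pir1Δ were of genes with few reads. Of the 21 members that fell, 12 stayed under 2 CPM in every course library, and 8 of the 10 I right members tested were among the 21. The largest change was that of SPAC977.18 (-3.78 ± 0.54, edgeR adjusted p = 7.0e-06), which reached no more than 0.217 CPM in pir1Δ and ran between 0.0591 and 1.61 CPM in WT. Multimapping reads made up 5.93% to 14.5% of reads in pir1Δ and 4.40% to 14.7% in WT diploids. The highest shares were those of vegetative pir1Δ and the second vegetative WT library, while the first was at 8.99%. From starvation to 8 h the share was higher in pir1Δ than in WT at each stage. It was 6.04% against 5.86% at 2 h and 13.4% against 4.79% at 8 h. No batch is given in the labels, and the part of these reads in the low counts was not tested.

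Whether the effect of either deletion differed between meiosis (1 to 8 h) and before was tested as an interaction. EdgeR called no member among 50 for red1 (background 0% higher and 0% lower) or for pir1 (background 0.0175% higher, 0% lower), while 5 members for red1 and 9 for pir1 had unadjusted p-values below 0.05. DESeq2 called 1 higher and 1 lower for red1, and 1 lower for pir1. The lowest adjusted p-values were those of nrg1, -2.91 ± 0.68 for red1 (edgeR adjusted p = 0.14) and -2.73 ± 0.63 for pir1 (adjusted p = 0.39).

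Within the strains, the meiotic course moved the members at other times and other ends. On starvation, edgeR (strain as a block) called 8 of 48 members higher, with 20.5% of all genes, and 9 lower, with 19.3%. The 8 higher became 4 without red1Δ and 5 without pir1Δ libraries. The hexose transporter gene ght7 stood, after starvation, at 4.96 CPM in red1Δ, 15.9 CPM in pir1Δ and 164 CPM in WT, against 0.295 to 1.51 CPM in the 4 vegetative libraries, a change of 5.01 ± 0.80 (edgeR adjusted p = 1.2e-05). All 3 starved libraries were above all vegetative ones, and WT far above the mutants.

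SPAC977.12, an L-asparaginase gene, moved the other way, with 2.71 to 5.14 CPM in starved libraries, against 32.9 to 54.8 CPM in vegetative ones and no overlap (edgeR -3.51 ± 0.75, adjusted p = 0.00043). SPBPB10D8.01 fell on starvation in each strain (4.77 to 10.5 CPM in starved libraries, against 18.4 to 100.3 CPM in vegetative ones) and peaked 1 h after the inhibitor was added, at 155 CPM in red1Δ, 188 CPM in pir1Δ and 446 CPM in WT. EdgeR called both the fall on starvation (-3.65 ± 0.96, adjusted p = 0.0034) and the increase at 1 to 3 h against starved cells (adjusted p = 0.0039). The second call was lost without red1Δ or pir1Δ libraries (adjusted p = 0.092 and 0.063). The permease gene nrg1 did the reverse in the mutants, with 37.5 to 55.7 CPM at 1 to 3 h in red1Δ cells, against 1125 CPM in starved ones.

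At 1 to 3 h against starved cells, 3 members rose (background 3.94%) and 5 fell (background 5.8%). The cells at 1 to 3 h were labelled as in EMM with the inhibitor and the starved ones as in EMM-N, so medium and inhibitor cannot be told apart in this comparison. The uncharacterized II right gene SPBPB2B2.08 showed a peak at 1 h of 280 CPM in red1Δ, 194 CPM in pir1Δ and 17.1 CPM in WT, against 5.33 CPM in starved red1Δ, 1.42 CPM in starved pir1Δ and 0.160 CPM in starved WT cells. No other II right member exceeded 10 CPM in any WT diploid library. The edgeR change was 5.51 ± 1.01 (adjusted p = 0.00037).

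The largest shift of the members as a group came at 4 to 6 h. Against 1 to 3 h, edgeR called 20 of 48 higher, where 22% of all genes were, and 6 lower, where 21.6% were, and the member median was 0.85 beside 0.02 over all genes (log2). Without the WT libraries, 13 were higher and 2 lower. All 10 tested I right members had a positive change, and 7 of them passed the test. Apart from SPAC186.02c and pfl9, no I right member exceeded 2 CPM in any course library, so most of these changes rest on few reads. SPAC186.07c, for example, had a median of 0.135 CPM at 1 to 3 h and 0.260 CPM at 4 to 6 h. Among the 30 coding genes next inward at I right, 15 of 28 tested were higher and 2 lower, with a median of 0.61.

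All members of the 3-copy family were among these calls. SPAC977.06 was at 9.80 to 86.7 CPM (median 32.7) over the 9 libraries of 4 to 6 h, against 0.226 to 8.72 CPM (median 3.13) over the 9 of 1 to 3 h. By strain, it peaked at 53.0 CPM in red1Δ, 13.2 CPM in pir1Δ and 86.8 CPM in WT. SPBC1348.07 peaked at 38.2 CPM in red1Δ, 41.7 CPM in pir1Δ and 64.9 CPM in WT, and stood at 12.2, 26.0 and 30.6 CPM by 1, 2 and 3 h in pir1Δ, against 0.113, 0.868 and 2.137 CPM in WT. The third copy, SPBPB2B2.14c, climbed to 47.7 CPM at 8 h in red1Δ and stayed at or under 0.752 CPM in pir1Δ and 0.491 CPM in WT.

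EdgeR gave 3.29 ± 0.72 for SPAC977.06 (adjusted p = 0.00080), 3.029 ± 0.72 for SPBC1348.07 (adjusted p = 0.0016) and 2.72 ± 0.48 for SPBPB2B2.14c (adjusted p = 0.00015) at 4 to 6 h. Given the few differing bases shown above, counts assigned to 1 copy are uncertain. The II right copy exceeded 2 CPM only in the red1Δ diploid, while the I left copy had its lowest peak in pir1Δ. Without the WT libraries the call of SPBC1348.07 was lost (adjusted p = 0.055).

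At 7 to 8 h, edgeR called 2 members higher (background 1.74%) and none lower (background 0.404%): SPAC186.02c and ftm1. SPAC186.02c had its highest level of the course at 8 h in each strain: 4.26 CPM in red1Δ, 20.1 CPM in pir1Δ and 81.8 CPM in WT at 8 h (2.66 ± 0.69, adjusted p = 0.046). That call was lost without the WT libraries (adjusted p = 0.33), without those of pir1Δ (0.15) or without vegetative WT replicate 1 (0.056). The other one, ftm1 (adjusted p = 0.050), had a mean of 3.42 reads, too few to name a level.

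**Figure D3:**
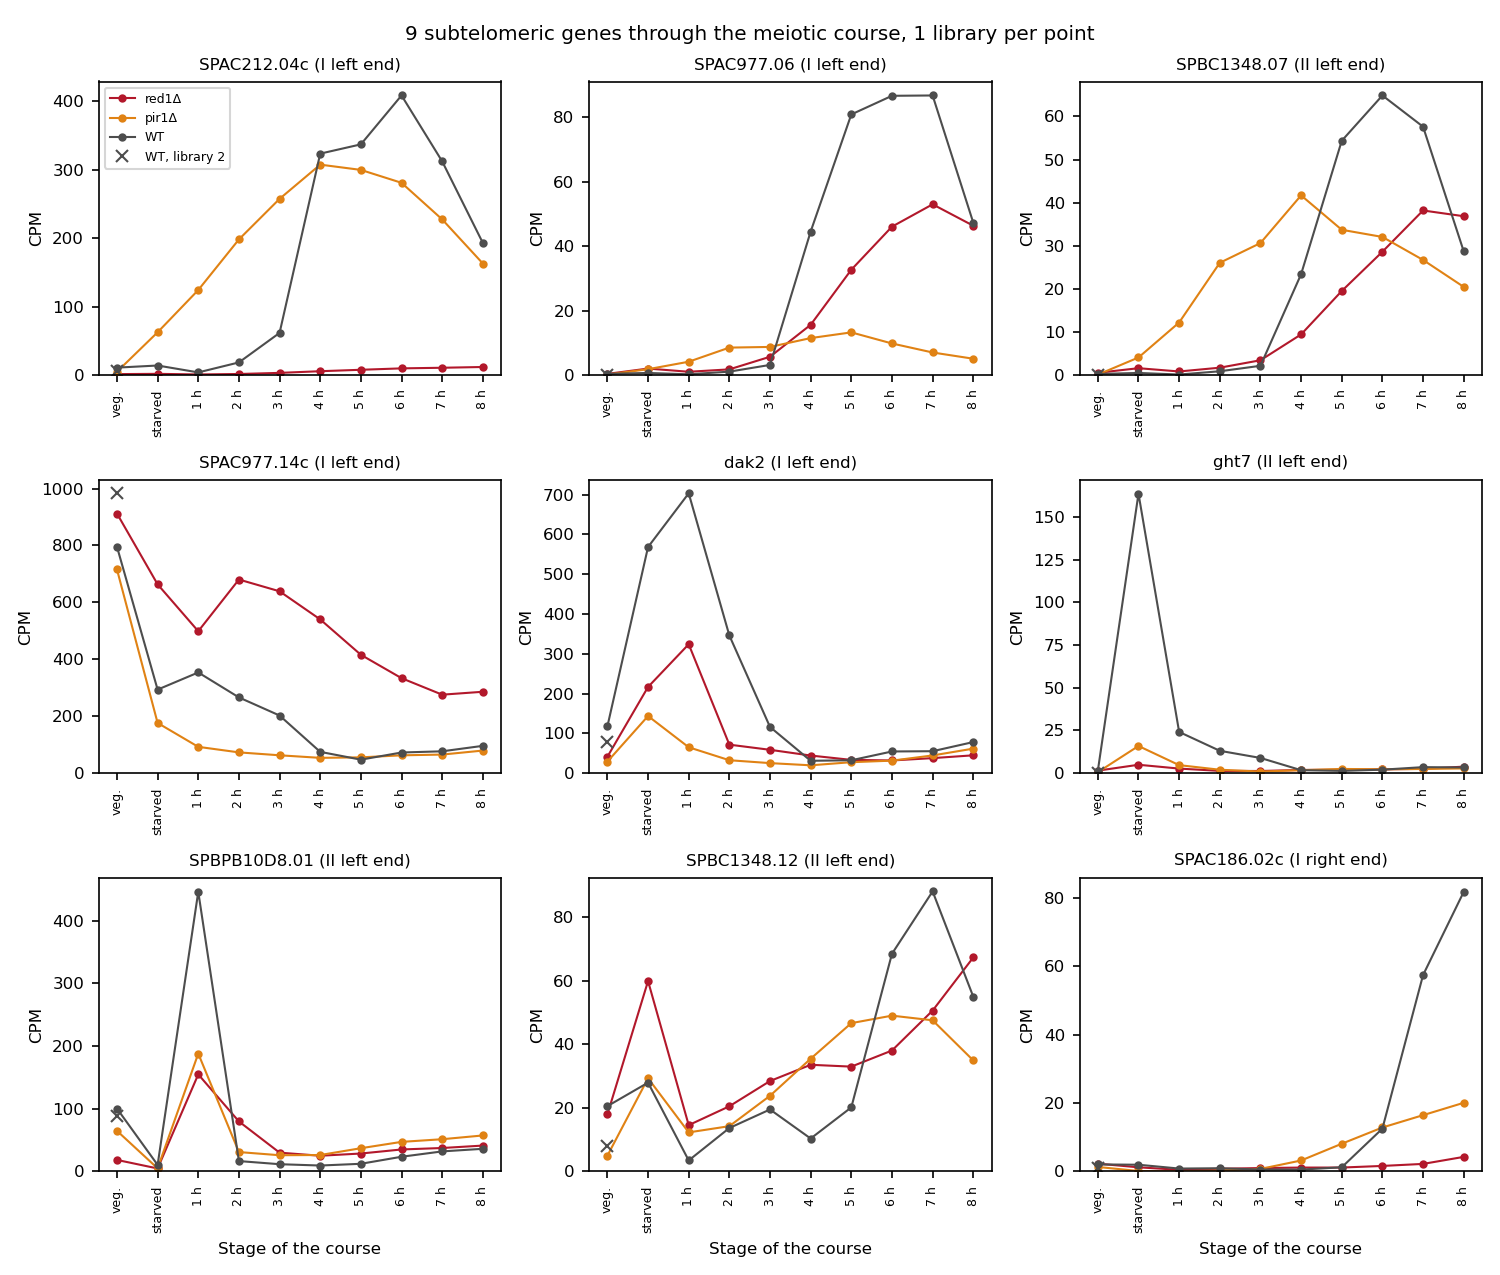
CPM of 9 members through the course in red1Δ, pir1Δ and WT diploids, 1 library per point; the cross is the second vegetative WT library. In WT, SPAC212.04c, SPAC977.06 and SPBC1348.07 climb at 4 to 6 h, while in pir1Δ SPAC212.04c (257 CPM) and SPBC1348.07 (30.6 CPM) are already high at 3 h; ght7 peaks in starved cells (164 CPM in WT), SPBPB10D8.01 at 1 h (446 CPM in WT) and SPAC186.02c at 8 h (81.8 CPM in WT).

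In growing h90 cells with tor2-ts6, most members stood higher in the libraries labelled cul4Δ and in ddb1Δ than in ubi4Δ. The summed level of II left was 260.3 and 369.8 CPM in the libraries labelled cul4Δ and 254 and 293 CPM in ddb1Δ, against 15.2 and 10.3 CPM in ubi4Δ. At I right it was 253 and 349.7 CPM in those labelled cul4Δ and 237 and 224 CPM in ddb1Δ, against 43.6 and 15.6 CPM in ubi4Δ, and at both ends ubi4Δ lay apart. Against the mean of ubi4Δ and ddb1Δ, the libraries labelled cul4Δ had 39 of 53 members tested higher and 2 lower in edgeR's test (pir1 status as a block), where 20.7% of all 6331 genes were called higher and 12.3% lower. The member median was 2.30 beside -0.01 over all genes (log2). By end, 12 of 18 were higher at I left, 10 of 12 at I right, 6 of 7 at II left and 11 of 16 at II right. For ddb1Δ against ubi4Δ, 37 members were higher and none lower, where 25.3% and 14.6% of all genes were.

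These differences lay in part in low levels of ubi4Δ. Both ubi4Δ libraries were below all 4 others for 43 of the 53 members, as they were for 37.0% of all genes tested. Both libraries labelled cul4Δ were above all 4 others for 31 members, and for 26.0% of all genes. The 37 calls for ddb1Δ became 24 without the ubi4Δ library, 13 without ubi4Δ pir1Δ, 19 without ddb1Δ and 17 without ddb1Δ pir1Δ. Calls were made in both comparisons for 30 members, but these comparisons share their libraries.

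The outermost helicase genes set the libraries labelled cul4Δ apart from ddb1Δ too. In those labelled cul4Δ without and with pir1Δ, tlh2 was at 150.3 and 183 CPM, against 9.26 and 3.41 CPM in ddb1Δ and 3.98 and 3.60 CPM in ubi4Δ. Likewise tlh1 was at 12.2 and 8.84 CPM in those labelled cul4Δ, against 0.982 and 0.853 CPM in ddb1Δ and 0 and 0 CPM in ubi4Δ. For both genes, the pair labelled cul4Δ stood above every one of the other 44 libraries.

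Against the ubi4Δ and ddb1Δ mean, edgeR gave 5.00 ± 0.32 for tlh2 (adjusted p = 0.0021). It also called tlh1 higher (adjusted p = 0.0026), but with no read in ubi4Δ the fitted size depends on the prior count. With 3 reads per library taken as the limit for 0, tlh1 was at least 40.8-fold higher in libraries labelled cul4Δ than in ubi4Δ, and edgeR gave 3.38 ± 0.27 (adjusted p = 0.045) for it against ddb1Δ alone. The neighbouring features without an annotated product followed: SPBCPT2R1.07c was at 15.4 and 18.7 CPM in libraries labelled cul4Δ, against 0.842 and 0.995 CPM in ddb1Δ and 0 and 0 CPM in ubi4Δ. SPAC212.10 was at 6.30 and 5.19 CPM in those labelled cul4Δ, against 0.140 and 0.142 CPM in ddb1Δ and 0 and 0 CPM in ubi4Δ. Set directly against ddb1Δ, the libraries labelled cul4Δ had 9 members higher (background 1.04%) and none lower (background 0.19%), with tlh2 at 4.64 ± 0.41 (edgeR adjusted p = 0.043). SPAC212.08c, a GPI-anchored protein gene, was at 68.7 CPM without and 3.98 CPM with pir1Δ in libraries labelled cul4Δ, so its call (4.36 ± 0.97, adjusted p = 0.027) rests on values far apart.

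In ddb1Δ, the largest fitted changes over ubi4Δ were of genes inward of tlh1 and tlh2. The ftm4 gene of I right, for a transmembrane-helix protein, was at 7.72 and 6.54 CPM in ddb1Δ, against 0 and 0 CPM in ubi4Δ. At the same limit of 3 reads per library, that is at least 27.6-fold higher. SPBPB2B2.07c was at 3.72 and 7.89 CPM in ddb1Δ, against 0 and 0 CPM in ubi4Δ, at least 22.5-fold higher. With the 6 members at 0 in both ubi4Δ libraries put at such limits, the member median for ddb1Δ was 2.15 in place of 2.39 (log2), and that for the libraries labelled cul4Δ stayed at 2.30.

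At II left, SPBPB10D8.01 was at 111 and 126 CPM in ddb1Δ, against 1.21 and 0.514 CPM in ubi4Δ, and the arylsulfatase gene SPBPB10D8.02c at 100.1 and 113 CPM, against 0.692 and 0.257 CPM. EdgeR gave 7.08 ± 0.33 (adjusted p = 0.0013) and 7.80 ± 0.41 (adjusted p = 0.0015). For SPBPB10D8.01 the libraries labelled cul4Δ, at 110 and 163 CPM, overlapped with ddb1Δ. In tor2-ts6 alone these genes were at 22.8 and 31.9 CPM and in WT at 29.1 and 18.1 CPM, so both ubi4Δ libraries were the lowest.

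The 2 members lower in libraries labelled cul4Δ were SPBPB2B2.05, annotated as a glutamine amidotransferase (24.4 and 59.3 CPM, against 92.5 and 115 CPM in ddb1Δ and 64.4 and 72.3 CPM in ubi4Δ), and SPAC977.14c (299.7 and 493 CPM, against 507 and 571 CPM in ddb1Δ and 449.9 and 566 CPM in ubi4Δ). EdgeR gave -1.20 ± 0.26 (adjusted p = 0.027) for SPBPB2B2.05. For SPAC977.14c it gave -0.55 ± 0.16 (adjusted p = 0.050). Both calls were lost when any 1 of the ubi4Δ or ddb1Δ libraries was left out.

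Of the 120 coding genes next inward of the 4 ends, 30 (25%) were higher and 15 (12.5%) lower in libraries labelled cul4Δ (median -0.08). These shares were near those over all genes, 20.7% and 12.3%. In ddb1Δ against ubi4Δ, 48 (40%) were higher and 9 (7.5%) lower (median 0.47), where 25.3% and 14.6% of all genes were. For ddb1Δ the counts by end were unequal: 16 of 30 were higher and 1 lower at I left, 14 higher and none lower at I right, and 9 higher and 4 lower at each end of II. No test set these genes against the members. Of 36 telomere and heterochromatin genes, 1 was higher and 8 lower in libraries labelled cul4Δ, and 6 were higher and 4 lower in ddb1Δ against ubi4Δ.

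**Figure D4:**
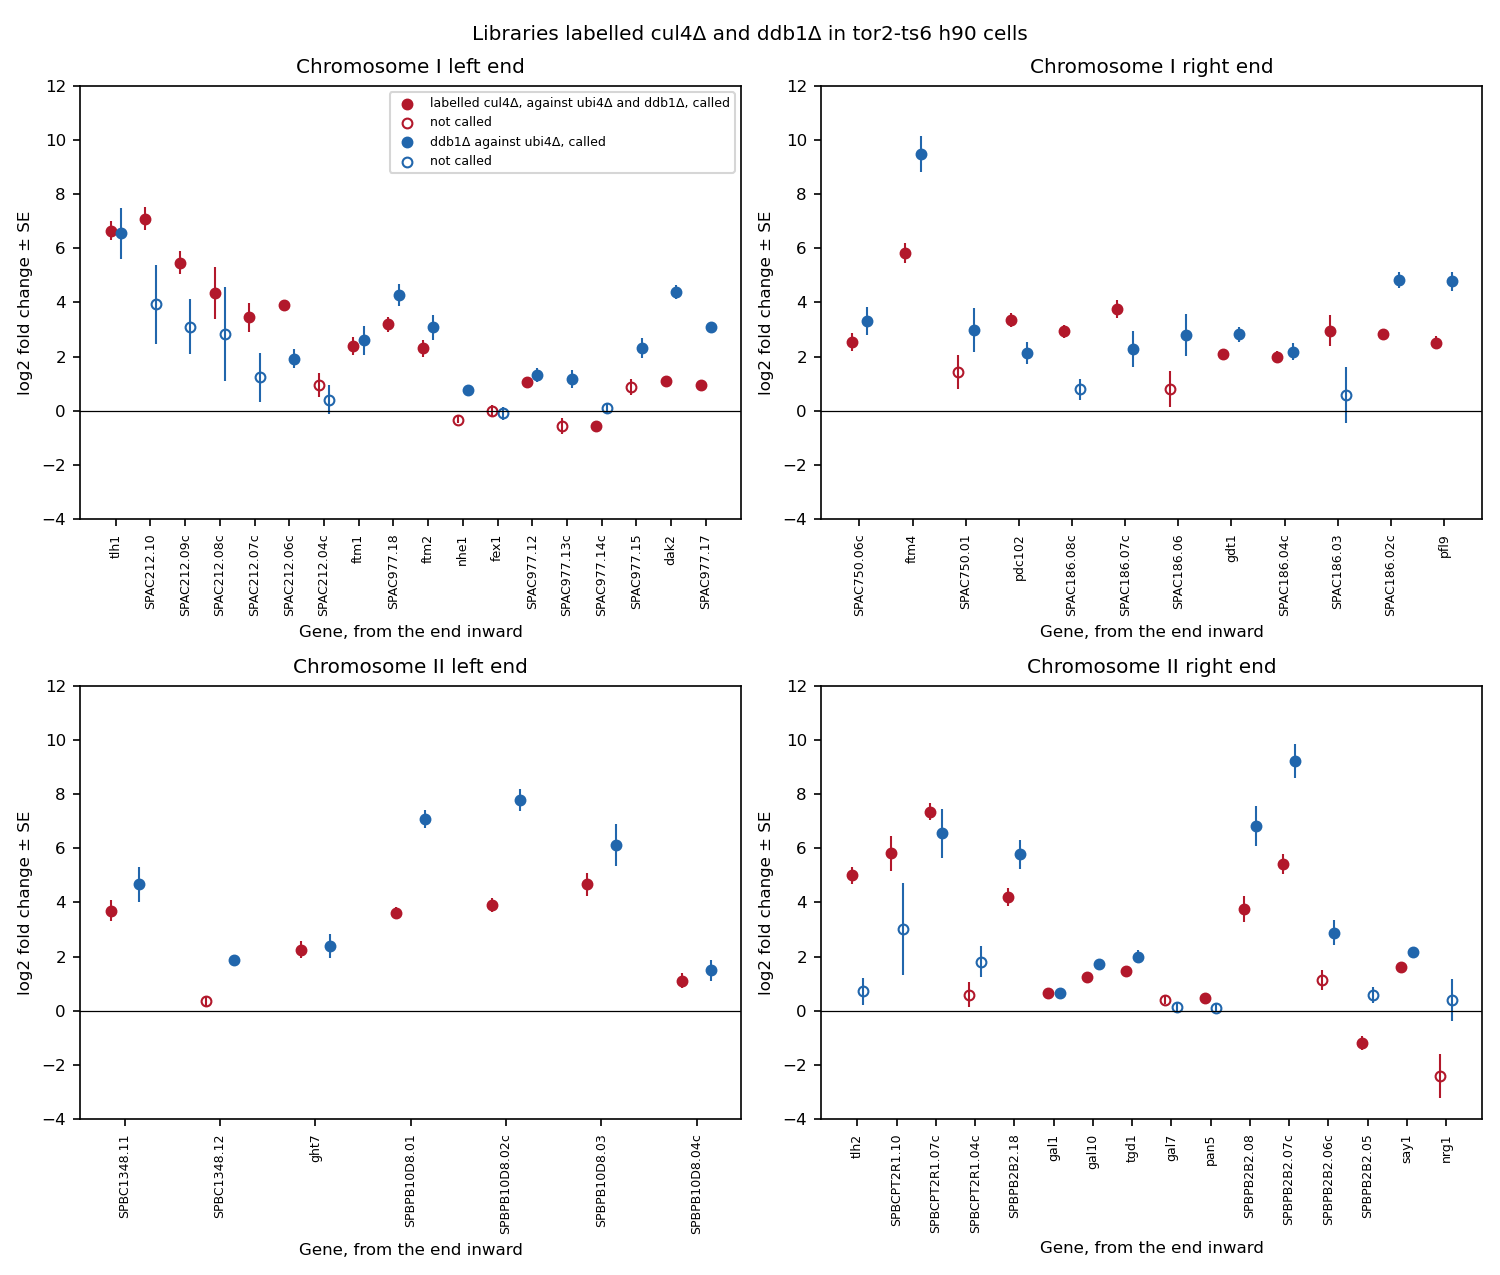
Log2 fold change with its SE (edgeR) of the 53 members tested in tor2-ts6 h90 cells, by end and from the telomere inward: libraries labelled cul4Δ against ubi4Δ and ddb1Δ (red) and ddb1Δ against ubi4Δ (blue), with filled points for adjusted p under 0.05. The red point of tlh2, outermost at II right, is at 5.00; points of the 6 members without reads in ubi4Δ, such as the blue one of ftm4 at 9.50, have a size that depends on the prior count of the fit.

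Single libraries give the effect of tor2-ts6 itself, with no replicate and no test. Among 30 members with at least 50 reads in either library, 14 were at least 2-fold higher in tor2-ts6 than in WT (17.2% of all genes with such counts) and 7 at least 2-fold lower (14.3%). The permease gene nrg1 was at 664 CPM in tor2-ts6 and 15.1 CPM in WT. SPBPB2B2.06c, annotated as a phosphoprotein phosphatase, was at 189 CPM in tor2-ts6 and 19.7 CPM in WT, and dak2 at 259 CPM and 33.6 CPM. By contrast, ftm4 was at 1.81 CPM in tor2-ts6 and 9.35 CPM in WT, and SPAC977.12 at 17.2 CPM in tor2-ts6 and 48.2 CPM in WT. In h90 cells nrg1 thus stood high in tor2-ts6, and among the further deletions it was at 43.2 CPM in the library labelled cul4Δ and 410 CPM in that labelled cul4Δ with pir1Δ, at 894 and 956 CPM in ddb1Δ and at 646 and 797 CPM in ubi4Δ.

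Set against tor2-ts6 alone, the library labelled cul4Δ had 26 of 47 members higher and 5 lower (9.2% and 5.72% of all genes), the ddb1Δ library 14 of 35 higher and none lower (5.22% and 2.32%), and the ubi4Δ library 1 of 26 higher and 15 lower (1.2% and 8.57%). These 3 comparisons share the tor2-ts6 library.

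The authors' deposited table for tor2-ts6 mat1Msmt0 cells in YEA at 30C, without replicate values, lists 47 members. Its fold changes are against another library, which is not identified here. In the authors' deposited table, 18 of them were at a log2 fold change of 1 or more with q under 0.05 and 8 at -1 or less, where 23.2% and 12.9% of its 6495 genes were. SPBPB2B2.06c (6.59), nrg1 (5.75) and SPBPB2B2.05 (4.77) had high log2 values in the authors' deposited table, and ftm4 was at -3.27. The same genes in h90 cells had log2 ratios of tor2-ts6 to WT of 2.86, 5.05, 1.74 and -2.66.

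No member passed the test for loss of pir1 in vegetative cells. Over 5 backgrounds (11 libraries), edgeR called none of 57 members (background 0.404% higher and 0.0155% lower), although 5 members had an unadjusted p below 0.05; the smallest adjusted p among members was 0.66, and DESeq2 called 0 as well. The backgrounds differed: in the vegetative diploid nrg1 was at 69.4 CPM in pir1Δ, against 0.969 and 0.413 CPM in WT, whereas in mat1Msmt0 cells in EMM it was at 32.5 CPM in pir1Δ and 35.5 CPM in WT. The diploid pir1Δ library had 10 of 23 members higher and 5 lower than the second WT library (3.44% and 0.877% of all genes), with all 7 counted II right members higher.

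In mat1Msmt0 cells in EMM, by contrast, 2 of 27 members were higher and 2 lower in pir1Δ than in WT (0.927% and 0.652%), and gal1 was at 40.2 CPM in pir1Δ and 46.9 CPM in WT. The authors' deposited table for pir1Δ mat1Msmt0 cells in YEA, also against a library not identified here, lists 46 members. Of these, 4 were higher and 5 lower by the same limits (6.68% and 1.29% of its genes). In the authors' deposited table SPBPB2B2.06c was at 1.19 and SPAC977.14c at -1.22 (log2 fold change).

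Several members differed widely between media, and in GFP-Pir1 cells medium and temperature, which changed together, cannot be told apart. Of 39 members with at least 50 reads, 16 were at least 2-fold higher in EMM at 18C than in YEA at 30C and 11 at least 2-fold lower (12.2% and 7.95% of all genes). SPBPB2B2.06c was at 64.8 CPM in EMM and 0.235 CPM in YEA. SPAC186.02c was at 28.6 CPM in EMM and 0.196 CPM in YEA, and SPBPB2B2.08 at 8.43 CPM in EMM and 0.118 CPM in YEA. The pair of copies shown above stood high in YEA instead: SPAC977.18 was at 0.323 CPM in EMM and 86.9 CPM in YEA, and SPBPB2B2.18 at 0.440 CPM in EMM and 73.1 CPM in YEA. The neighbour of SPAC977.18 at I left, ftm2, picked after its values were seen, was at 0.0881 CPM in EMM and 13.6 CPM in YEA.

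In pir1Δ mat1Msmt0 cells, compared at 1 temperature (29C), 8 of 27 members were at least 2-fold higher in EMM than in YEA and 8 at least 2-fold lower (5.25% and 1.93% of all genes). SPBPB2B2.06c was at 575 CPM in EMM and 8.73 CPM in YEA, and SPBPB2B2.08 at 41.7 CPM in EMM and 0.847 CPM in YEA, the same direction as in GFP-Pir1 cells. SPAC750.01 was lower in EMM in both strains, at 0.523 CPM against 5.42 CPM in YEA in pir1Δ cells and at 5.31 CPM against 111 CPM in YEA in GFP-Pir1 cells. The pan5 gene differed between the strains: 76.7 CPM in EMM and 51.7 CPM in YEA in pir1Δ cells, but 29.2 CPM in EMM and 83.4 CPM in YEA in GFP-Pir1 cells. SPAC977.18 did not reach 50 reads in either pir1Δ mat1Msmt0 library.

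**Figure D5:**
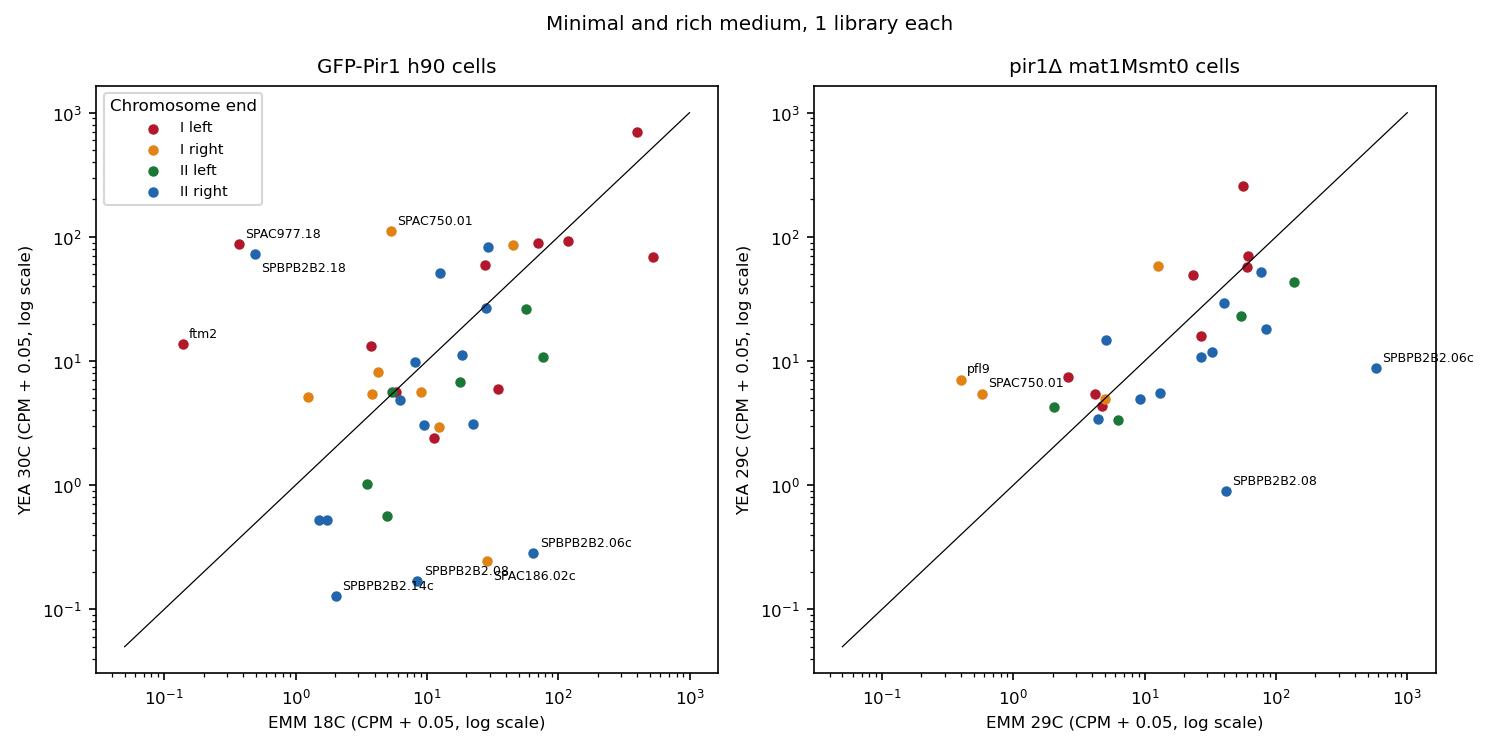
CPM + 0.05 of members with at least 50 reads in either library, in EMM (x axis) and YEA (y axis), both on log scales, for GFP-Pir1 h90 cells (left) and pir1Δ mat1Msmt0 cells (right), coloured by chromosome end; the line marks equal levels and names are given where the log2 ratio is 3 or more in size. SPBPB2B2.06c and SPBPB2B2.08 lie right of the line in both panels (SPBPB2B2.06c at 575 CPM in EMM in pir1Δ cells), and SPAC977.18, SPBPB2B2.18 and ftm2 lie left of it in GFP-Pir1 cells.

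The variants of Pir1 were compared in EMM at 18C. GFP-Pir1-SD had none of 35 members at least 2-fold higher and 5 at least 2-fold lower than GFP-Pir1 (0.39% and 3.66% of all genes), and GFP-Pir1-SA had 2 higher and 3 lower (0.286% and 0.522%), larger shares than over all genes apart from the higher ones in GFP-Pir1-SD. The members past 2-fold, named after their values were seen, were SPAC186.02c, SPBC1348.07, SPBCPT2R1.04c, SPBPB2B2.05 and SPBPB2B2.14c, lower in GFP-Pir1-SD. In GFP-Pir1-SA, SPBPB10D8.02c and SPBPB2B2.08 were higher and ftm4, SPBCPT2R1.04c and SPBPB2B2.05 lower. SPBPB10D8.02c was at 154 CPM in GFP-Pir1-SA and 77.0 CPM in GFP-Pir1, and SPBCPT2R1.04c had 8 reads in GFP-Pir1-SD and 7 in GFP-Pir1-SA, against 57 in GFP-Pir1. SPAC186.02c was at 12.8 CPM in GFP-Pir1-SD, 30.4 CPM in GFP-Pir1-SA and 28.6 CPM in GFP-Pir1, and tlh2 at 6.35 CPM in GFP-Pir1-SD, 8.77 CPM in GFP-Pir1-SA and 8.05 CPM in GFP-Pir1. Without replicates, no ratio here can be set against a spread.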

How the data were processed

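RNA levels were taken from the authors' deposited tables of read counts per gene, 1 per library, made with STAR after trimming with Trimmomatic per the submitters' processing notes; no source used here states their versions or the genome build. The files hold 3 counts per gene, without strand and for each strand, and leave out reads that map to several places (2.98% to 14.7%) or overlap several genes (13.2% to 30.4%). The stranded count was used where its total was at least 4 times that of the other strand in every library of a set, and the count without strand in the diploid course, where that ratio fell to 2.19. Libraries came from different kits per the labels' protocols. The diploid course is stranded less clearly, and its count without strand takes reads of both strands together. Reads where genes overlap on opposite strands are left out of that count. In red1Δ diploids, gal10 and tgd1 had lower levels without strand than in the stranded count.

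The 2 deposited comparison tables give log2 fold changes and q-values by the authors, used as written; 4 other columns of per-sample values in them and 1 library of mat1Msmt0 WT cells in YEA were not used here.

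Counts were tested with edgeR 4.0.16 (TMM, filterByExpr, quasi-likelihood F test, R 4.3.3) over all genes, with Benjamini-Hochberg adjustment and a threshold of 0.05, and with DESeq2 1.42.0 as an alternative; the tests were first tried on simulated data. Pairs of single libraries were compared as log2 ratios of TMM-scaled CPM with a prior count of 2, for genes with at least 50 reads. Sequences and gene products came from RefSeq (ASM294v3), with MAFFT 7.526 for copies; no coordinates are given because the build of the files is not known. Genes named with values were tlh1, tlh2 and gal1, gal7 and gal10, up to 3 strain-differing members per end, the 3 largest changes each way per test (mean of at least 20 reads) and the 2 highest medians per end. Members and lists were chosen with earlier results of these data known. Alternatives were another tool, filter, scaling, count column and left-out libraries.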

Additional observations from a re-analysis of the deposited data

How the results depend on the processing

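Directions of the named genes held in most settings: of 400, 355 kept the call, 44 lost it and 1 reversed, SPBPB2B2.06c on starvation with WT diploid libraries only (-0.93). Of the counts, 222 stayed within 1.5 times and 57 moved. The lower members for the label cul4Δ were 1 with total-read scaling, 0 against ddb1Δ or ubi4Δ alone and 0 to 6 on leaving out a library; the higher ones were 9 against ddb1Δ alone, and 13 to 42 for ddb1Δ against ubi4Δ on leaving out a library. Lower members in red1Δ were 3 with total-read scaling, 4 without vegetative WT replicate 1 and 5 in meiotic hours only, and in pir1Δ 13 with the stranded count. The interaction calls by DESeq2 were 1 higher and 1 lower for red1 and 1 lower for pir1, and 1 lower for red1 without vegetative WT replicate 1.

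Starvation calls were 4 to 10 higher on leaving out libraries or a strain, with 4 without red1Δ and 5 without pir1Δ, and fell to 1 higher and 0 lower in WT alone and to 2 lower in red1Δ alone. At 1 to 3 h, WT alone gave 0 higher and 2 lower and pir1Δ alone 7 and 8. At 4 to 6 h, leaving out libraries gave 13 to 24 higher and 2 to 6 lower (13 and 2 without WT), with 9 higher in WT alone and 3 lower in pir1Δ alone. At 7 to 8 h the 2 higher became 9 with DESeq2, 5 with total-read scaling, 0 with the stranded count, 0 to 4 on leaving out libraries, 0 in WT or pir1Δ alone and 1 in red1Δ alone. Among single pairs, total-read scaling gave 4 lower in tor2-ts6, 0 higher in ubi4Δ, 1 higher in GFP-Pir1-SA and 3 lower in the vegetative pir1Δ diploid. A minimum of 20 reads gave 11 lower in tor2-ts6, 2 higher in ubi4Δ, 11 lower in GFP-Pir1-SD, 7 lower in GFP-Pir1-SA, and 4 higher and 6 lower in pir1Δ mat1Msmt0. The count without strand gave 2 higher in ubi4Δ and 0 in GFP-Pir1-SA. The causes were not tested. No paired analysis was possible because the numbers in the titles mark strains or media and not replicates; the matching the labels do give, by stage, strain or pir1 status, was a block in the fits. Depth limits the outermost members, most of which lie near the 0.1 CPM limit outside the libraries labelled cul4Δ.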
